A study of Mus musculus with 185 samples.

Results

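The genes described here encode the transforming growth factor-beta (TGF-beta) ligands Tgfb1, Tgfb2 and Tgfb3, the receptors Tgfbr1, Tgfbr2 and Tgfbr3, and the latent TGF-beta binding proteins Ltbp1, Ltbp2, Ltbp3 and Ltbp4. These 10 of the 17171 genes in the table were taken by name and role, with no threshold on expression. Their RNA was measured in single cells from adult mouse heart, captured with the Fluidigm C1 system in 4 captures named Jul24, Jul29, Nov4 and Nov11. The study traced fibroblasts and myofibroblasts, the matrix-producing cells of an infarct scar, with inducible Cre alleles and asked which cells give rise to myofibroblasts after myocardial infarction (MI). All mice were C57BL/6 (backcross N=6) and about 5 months old, and sorting removed dead, CD31-positive and CD45-positive cells before capture. Each cell is 1 sample, and although cells of a class came from more than 1 mouse no label names the mouse, so each class of cells counts as 1 sample, no difference between classes was tested, and the SD between cells is descriptive.

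The Postn-traced class held 27 eGFP-positive cells of capture Jul29, taken from the infarct 1 week after permanent coronary ligation in tamoxifen-fed mice of genotype Postn MCM/+; R26-eGFP. In these mice a tamoxifen-activated Cre (MerCreMer) is inserted in the periostin gene Postn, which leaves 1 working Postn copy, and Cre removes a stop cassette so that eGFP is expressed from the Rosa26 locus. The activated Postn-negative class held 24 eGFP-negative cells of the same capture without Postn mRNA by label. The untraced Postn-positive class held 28 activated cells that were labelled by Postn mRNA without eGFP, 6 from Jul29, 19 from Nov4 and 3 from Nov11. No label gives the mouse line of these cells, so what their lack of eGFP reports, Postn or Tcf21 history, is not known for each cell. In Postn MCM/+ mice recombination by Cre is also incomplete. The activated Tcf21-traced class held 44 infarct cells of capture Nov4 from Tcf21 MCM/+; R26-eGFP mice, in which the same kind of Cre is driven by the gene of the fibroblast transcription factor Tcf21. The activated Tcf21-traced cells were also taken 1 week after MI. In the study's tracing with the Tcf21 allele, tamoxifen was fed before MI and stopped ahead of surgery, whereas Postn MCM/+ mice were fed it after MI. By their trace, the resident Tcf21-traced cells carried the Tcf21 allele too. The untraced scar class held 29 eGFP-negative cells of capture Nov11, whose mouse line is not given in the sources used here. The labels name no line for resident cells without a trace either, but a figure legend of the study places resident eGFP-negative cells in Postn MCM/+; R26-eGFP mice. From uninjured hearts of capture Jul24 came 17 resident Tcf21-traced cells, 12 resident Postn-negative cells, 3 Postn-positive resident Tcf21-positive cells and 1 Postn-positive resident cell, although the study's text also places control cells without a trace in the remote region of the heart. Every uninjured cell was in capture Jul24 and no injured cell was, so injury and capture cannot be told apart.

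TGF-beta ligands are made as precursors whose propeptide stays wrapped around the mature dimer and keeps it latent, and LTBP1 or LTBP3 can be joined to that propeptide by disulfide bonds and tether the complex to the extracellular matrix. Once released by integrins, proteases or other activators, the dimer binds the type II receptor TGFBR2, which recruits and phosphorylates the type I receptor TGFBR1, and SMAD2 and SMAD3 carry the signal to the nucleus. In heart fibroblasts this pathway is known for driving smooth muscle actin, collagen and other matrix genes during scar formation.

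Values are deposited log2 (TPM+1), where TPM is a share of all transcripts already scaled by transcript length, so levels of different genes are compared per length. A class value is the mean over its cells, a gene counts as detected in a cell above 5 TPM, and intervals for shares are exact 95% Clopper-Pearson intervals that cover counting error only. The number of genes detected per cell ran from 141 to 5419 with a median of 2770. By class its median was 3643 in Postn-traced, 2342 in activated Postn-negative, 3280.5 in untraced Postn-positive, 3134 in activated Tcf21-traced, 3177 in untraced scar, 2264 in resident Tcf21-traced and 2091.5 in resident Postn-negative cells. Postn-traced and Tcf21-traced activated cells thus had more detected genes than the classes they are compared with below in all but 1 comparison, that of activated Tcf21-traced with untraced Postn-positive cells of Nov4, whose median was 3361. In the untraced scar class, 6 of 29 cells had fewer than 50% of the median number of genes of their capture. A value of 0 is described as listed at 0, because Gapdh was also listed at 0 in 9 cells, Ppia and Tpt1 in 6 each and Rplp0 in 5.

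Postn, which helped define the classes, was detected in 27 of 27 Postn-traced cells and in 3 of 24 activated Postn-negative cells, with means of 11.81 and 1.44. Tcf21 mRNA was detected in 26 of 44 activated and 9 of 17 resident Tcf21-traced cells, so the traced classes are named by their history of Tcf21 expression. At least 3 of 6 fibroblast markers were detected in 180 cells, all but 5, with a summed mean of 51.03 and Dcn highest at 13.13. The endothelial list, of which 4 genes were in the table, reached 3 markers in 0 cells (summed mean 1.74, Tek highest at 1.5), and the myeloid list did in 1 cell (0.91, Lyz2 highest at 0.27). Cardiomyocyte markers reached that number in 2 cells (summed mean 0.79, Tnnt2 highest at 0.33), epicardial markers in 1 (0.72, Wt1 highest at 0.49) and pericyte markers in 5 (4.93, Pdgfrb highest at 3.49). Smooth muscle markers reached it in 21 cells (7.92, Tagln highest at 3.02), of which 10 were activated Tcf21-traced, 6 untraced Postn-positive, 3 Postn-traced and 2 untraced scar cells.

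Of the ligands, Tgfb1, the isoform most often linked to fibrosis, was listed at 0 in 181 cells and passed 5 TPM in 1 cell, a Postn-traced cell with 9.65 TPM (0.541%, 0.0137 to 2.97). The other 3 cells with a value above 0 were 1 Postn-traced and 2 activated Tcf21-traced cells. No class difference in Tgfb1 could be read at this level of detection. Whether the transcript models used upstream lowered its values was not tested, so these values do not show that Tgfb1 was less expressed than the other ligands.

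Tgfb3, the ligand that binds TGFBR2 with the same high affinity as TGF-beta1, was detected in 87 cells (47%, 39.7 to 54.5). In Postn-traced cells it ran from 0 to 10.30 with a median of 7.16, and in activated Postn-negative cells from 0 to 9.91 with a median of 0. Most Postn-traced cells were high and most negative cells were at 0, while the extremes of both classes overlapped. Tgfb3 was detected in 20 of 27 Postn-traced cells (74.1%, 53.7 to 88.9) and in 4 of 24 negative cells (16.7%, 4.74 to 37.4). The class means of 5.94 and 1.30 differed by 4.64, more than the pooled SD between cells of 3.13. Few genes differed more: 99.9% of 15733 tested genes and 99.2% of the 2482 genes detected in at least 50% of the cells of either class had a smaller difference. Tgfb3 was among those 2482 genes only through its detection in the Postn-traced class. With the class value taken as log2 of the mean TPM the Tgfb3 difference was 2.72, and with medians it was 7.16.

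The other activated classes lay between these levels for Tgfb3. It ran from 0 to 9.89 with a median of 4.03 in activated Tcf21-traced cells, from 0 to 10.32 with a median of 3.43 in untraced Postn-positive cells, and from 0 to 10.68 with a median of 2.66 in untraced scar cells. In resident Tcf21-traced cells the median was 0 and the highest value 9.38, with 3 of 17 cells detected (17.6%, 3.80 to 43.4). Resident Postn-negative cells had a median of 0 and a highest value of 8.87, with 2 of 12 detected (16.7%, 2.09 to 48.4). Resident and activated Postn-negative cells were thus alike in being mostly at 0, and each of the 7 larger classes had some cells at 0 and some far above it.

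Against resident Tcf21-traced cells (mean 1.52), Tgfb3 was higher by 4.42 in Postn-traced cells (pooled SD 3.40) and by 2.60 in activated Tcf21-traced cells (mean 4.12, pooled SD 3.53). These comparisons share the resident class. The second difference did not exceed the spread, and among the 14 activated and 17 resident Tcf21-traced cells whose numbers of detected genes fell in the range both classes share it was 0.42. Between activated Tcf21-traced and untraced Postn-positive cells of the same capture the Tgfb3 difference was 1.14 with a pooled SD of 3.52, and it was 0.97 with a pseudocount of 5. With log2 of the mean TPM the difference of Postn-traced from resident Tcf21-traced cells was 2.49.

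Tgfb2, which needs the co-receptor TGFBR3 for high-affinity binding to TGFBR2, was detected in 68 cells (36.8%, 29.8 to 44.1). Its values ran from 0 to 7.81 with a median of 2.34 in Postn-traced cells and from 0 to 7.44 with a median of 0 in activated Postn-negative cells. The classes overlapped over nearly their whole ranges, with 12 of 27 cells (44.4%, 25.5 to 64.7) and 3 of 24 cells (12.5%, 2.66 to 32.4) detected. The means, 2.48 and 1.08, differed by 1.40, within the pooled SD of 2.54, by 0.81 with a pseudocount of 5 and by 2.34 between medians. Within capture Nov4, Tgfb2 ran from 0 to 7.79 with a median of 0 in activated Tcf21-traced cells and from 0 to 7.92 with a median of 3.53 in untraced Postn-positive cells. It was detected in 15 of 44 (34.1%, 20.5 to 49.9) and 11 of 19 cells (57.9%, 33.5 to 79.7), and the Tcf21-traced mean of 1.90 was lower than the Postn-positive mean of 3.65 by a difference of -1.75, also within the pooled SD of 2.68, and -3.53 between medians. Tgfb2 was therefore lower and Tgfb3 higher in activated Tcf21-traced than in untraced Postn-positive cells, neither beyond the spread between cells.

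**Figure D1:**
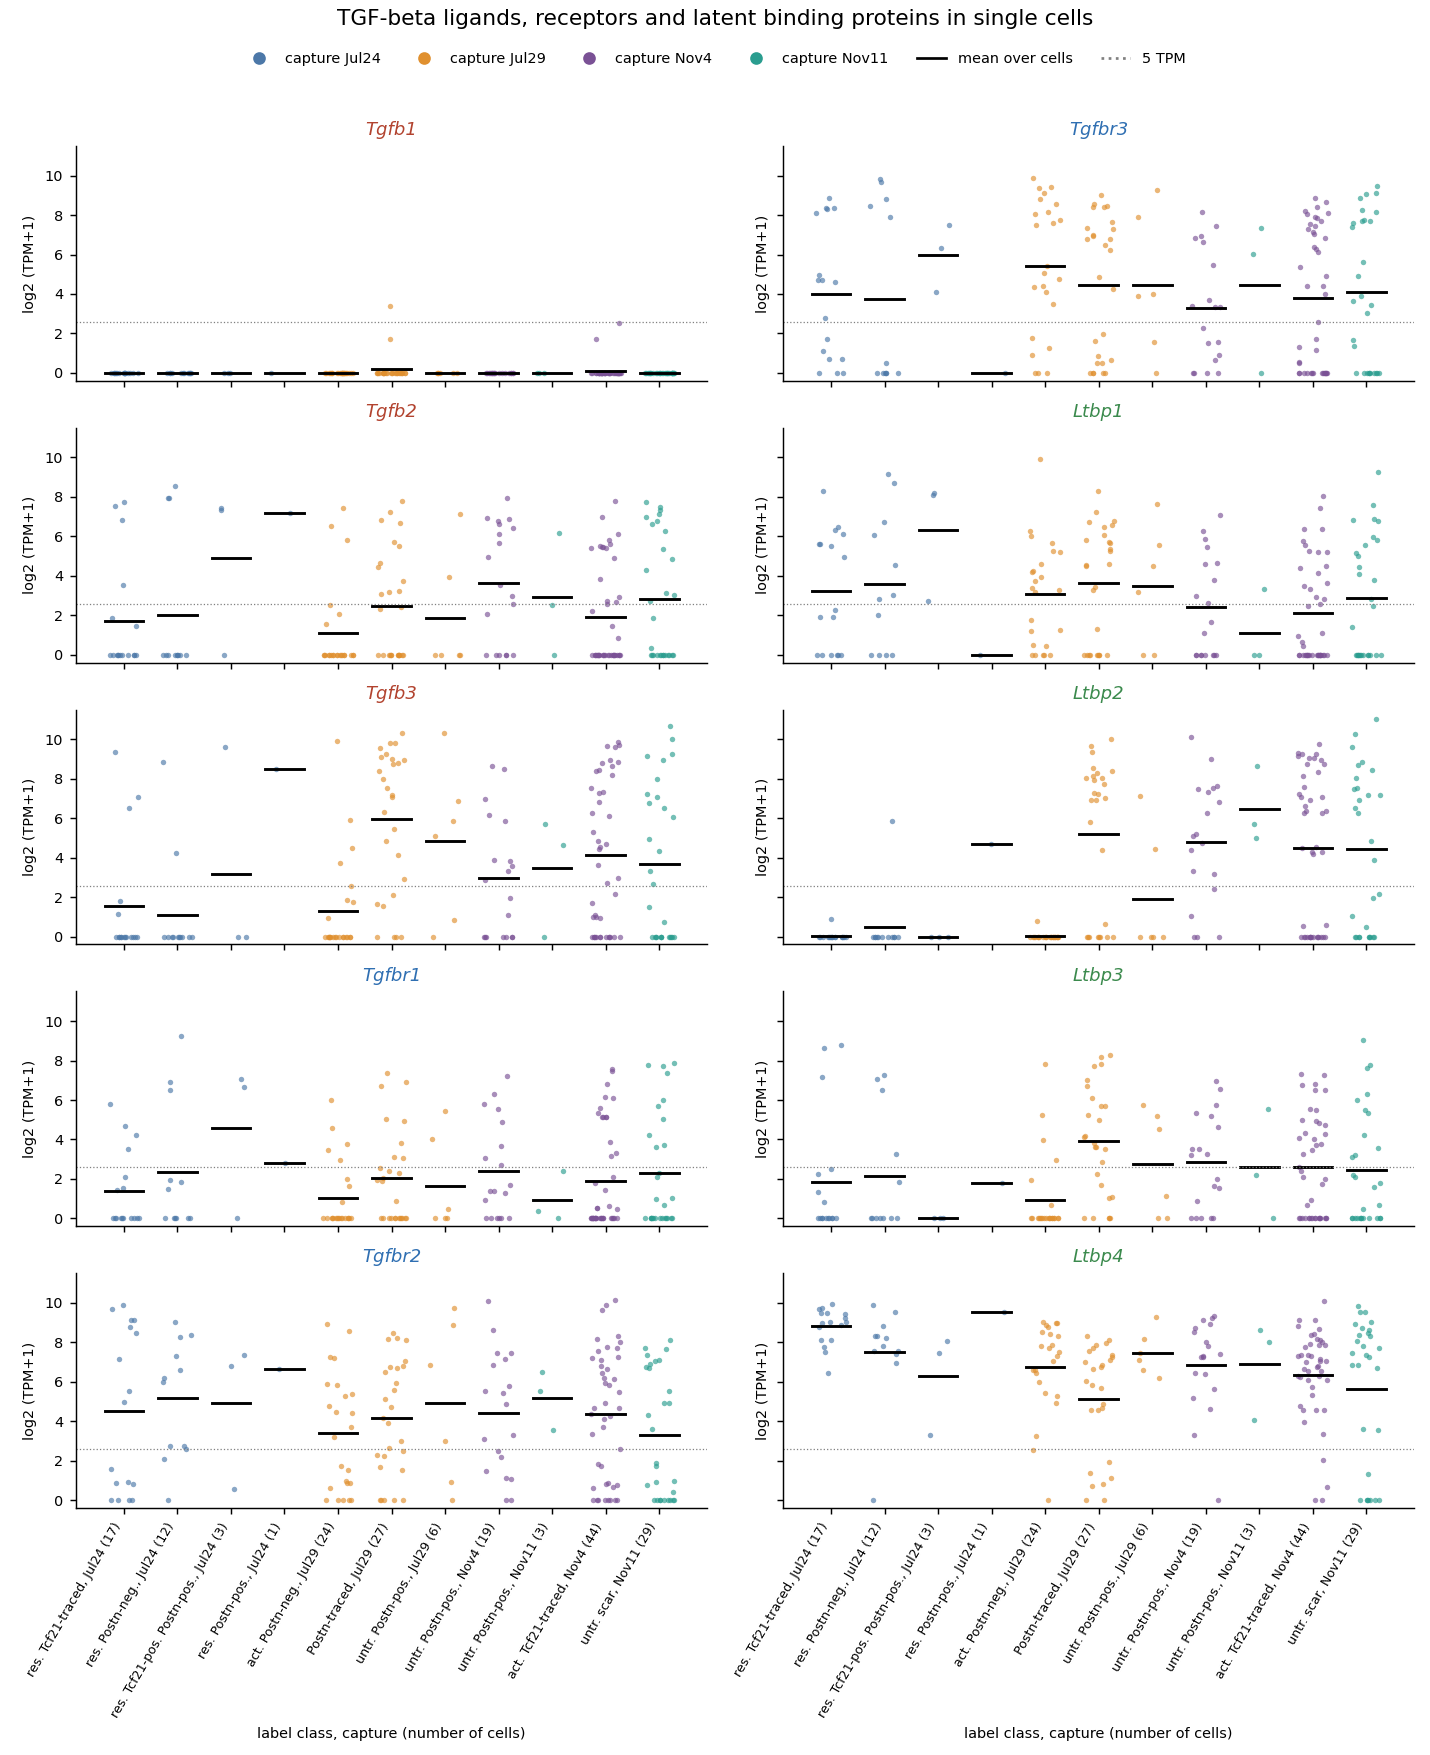
Deposited log2 (TPM+1) of each of the 10 genes in every cell, by class and capture, with a bar at each mean and a dotted line at 5 TPM. Tgfb1 lies at 0 in 181 cells, Ltbp2 is near 0 in the 24 activated Postn-negative and 17 resident Tcf21-traced cells, and Ltbp4 is above 5 TPM in all 17 resident Tcf21-traced cells.

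Of the receptors, Tgfbr2, the type II kinase that binds ligand first, was detected in 114 cells (61.6%, 54.2 to 68.7) and Tgfbr1, the type I kinase that phosphorylates SMAD2 and SMAD3, in 57 (30.8%, 24.2 to 38). Over the 7 classes of at least 12 cells, mean Tgfbr2 lay between 3.29 in untraced scar and 5.16 in resident Postn-negative cells, and mean Tgfbr1 between 1.05 in activated Postn-negative and 2.33 in resident Postn-negative cells. On this length-scaled measure the Tgfbr2 mean was above the Tgfbr1 mean in each of these 7 classes. In the 2 Postn-positive resident classes, of 3 cells and 1 cell, mean Tgfbr2 was 4.91 and 6.63 and mean Tgfbr1 4.57 and 2.80. Tgfbr3, or betaglycan, a co-receptor with no kinase that presents ligand, was detected in 108 cells (58.4%, 50.9 to 65.6), with means from 3.64 in untraced Postn-positive to 5.41 in activated Postn-negative cells among the 7 larger classes.

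As means of log2 values, no receptor differed by more than 1 log2 unit between Postn-traced and activated Postn-negative cells, where the differences were 0.98 for Tgfbr1, 0.75 for Tgfbr2 and -0.94 for Tgfbr3. In 2 alternatives, a pseudocount of 0.1 and the shared range of detected genes, Tgfbr3 was lower by more than 1 log2 unit, and with class medians its difference was positive. The median difference of the 10 genes was 1.54 with class medians, 1.33 with a pseudocount of 0.1 and 1.09 with each cell centred. At least 1 gene besides Tgfb2, Tgfb3, Ltbp2 and Ltbp3 was thus higher by more than 1 log2 unit there. With class medians Tgfbr1 was such a gene. It was above 1 TPM in 51.9% of Postn-traced cells, and its median was 0 in activated Postn-negative cells. With a pseudocount of 0.1 or centring the gene was possibly a receptor. Over all cells and as means of log2 values, receptors passed 1 log2 unit in 1 comparison. With class medians or a pseudocount of 0.1 they also did in others, such as Tgfbr3 at 4.32 between resident classes with medians. The 1 comparison was that of activated with resident Postn-negative cells. Myeloid markers differed there too, with summed means of 0.13 in activated and 4.08 in resident cells, of which 1 of 12 had at least 3. Their part in the differences was not tested. Tgfbr2 ran from 0 to 8.93 with a median of 3.46 in the activated and from 0 to 9.01 with a median of 6.10 in the resident class, and its means of 3.40 and 5.16 differed by -1.76 (pooled SD 2.97). Tgfbr1 ran from 0 to 6.02 with a median of 0 in the activated and from 0 to 9.27 with a median of 0.74 in the resident class, a difference of means of -1.27 (pooled SD 2.39). Tgfbr3 ran from 0 to 9.88 with a median of 5.25 and from 0 to 9.82 with a median of 0.26, a difference of 1.64 (pooled SD 3.81). The ranges of Tgfbr2 and Tgfbr3 overlapped almost wholly, that of Tgfbr1 reached higher in resident cells, and each of the 3 differences lay within the spread. From log2 of the mean TPM the differences were -1.09 for Tgfbr2, -3.53 for Tgfbr1 and -0.16 for Tgfbr3, the last of opposite sign. In the shared range of detected genes those of Tgfbr1 and Tgfbr3 were -0.63 and 0.55 (21 and 9 cells).

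Of the latent binding proteins, LTBP1 and LTBP3 bind the propeptides of the 3 TGF-beta isoforms, LTBP4 binds that of TGF-beta1 and is needed for elastic fibre assembly, and LTBP2 binds fibrillin microfibrils but not latent TGF-beta. Ltbp2 was detected in 82 cells (44.3%, 37 to 51.8) and was spread most unevenly over the classes. It ran from 0 to 10.01 with a median of 7.01 in Postn-traced cells, and in activated Postn-negative cells from 0 to 0.79 with a median of 0. Ltbp2 was detected in 18 of 27 Postn-traced cells (66.7%, 46 to 83.5) and in 0 of 24 negative cells, which allows a share of up to 14.2%. All 24 negative cells were thus at or near 0, and the overlap came from the 8 Postn-traced cells at 0 and those just above it.

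The Ltbp2 means of 5.20 and 0.03 differed by 5.16, past the pooled SD of 2.81 and past the difference of 99.9% of the tested genes and 99.4% of the 2482 well-detected ones. Ltbp2 was among the 2482 only through its detection in the Postn-traced class. In activated Tcf21-traced cells Ltbp2 ran from 0 to 9.76 with a median of 5.39, in untraced Postn-positive cells from 0 to 10.09 with a median of 4.86, and in untraced scar cells from 0 to 11.03 with a median of 4.85. The untraced Postn-positive cells differed by capture, with means of 1.92 in Jul29 (2 of 6 detected), 4.81 in Nov4 (14 of 19) and 6.45 in Nov11 (3 of 3). In resident Tcf21-traced cells it ran from 0 to 0.87 with a median of 0, with 0 of 17 cells detected (up to 19.5%), and in resident Postn-negative cells from 0 to 5.86, with 1 of 12 detected (8.33%, 0.211 to 38.5). Injured cells labelled by Postn or traced by Tcf21 were therefore split between 0 and high Ltbp2, whereas the Postn-negative classes and the resident Tcf21-traced class were almost all at 0. Against resident Tcf21-traced cells (mean 0.05), Ltbp2 was higher by 4.46 in activated Tcf21-traced cells (mean 4.51, pooled SD 3.27) and by 5.14 in Postn-traced cells (pooled SD 3.03), and both exceeded the spread. In the shared range of detected genes these differences were 2.95 (14 and 17 cells) and 4.49 (5 and 10 cells), and the first was 7.36 from log2 of the mean TPM. The 1 Postn-positive resident cell had an Ltbp2 value of 4.68, and the 3 Postn-positive resident Tcf21-positive cells were listed at 0.

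Ltbp3 was detected in 75 cells (40.5%, 33.4 to 48). Its values ran from 0 to 8.30 with a median of 3.84 in Postn-traced cells and from 0 to 7.84 with a median of 0 in activated Postn-negative cells. Although the ranges overlapped, 18 of 27 (66.7%, 46 to 83.5) against 4 of 24 cells (16.7%, 4.74 to 37.4) were detected, and the means of 3.90 and 0.94 differed by 2.96, past the pooled SD of 2.46; it was 4.79 and 1.81 with pseudocounts of 0.1 and 5. Against resident Tcf21-traced cells (mean 1.85) the Postn-traced mean of Ltbp3 was higher by 2.05, within the pooled SD of 2.93, and the difference was 0.01 when the class value was log2 of the mean TPM. Between activated and resident Postn-negative cells (mean 2.16) it was -1.22 (pooled SD 2.42), and 0 between medians. Ltbp1 was detected in 94 cells (50.8%, 43.4 to 58.2), with means over the 7 larger classes from 2.10 in activated Tcf21-traced to 3.62 in Postn-traced cells, and its difference of -1.13 between activated and resident Tcf21-traced cells (pooled SD 2.66) was -0.80 with each cell centred on its median.

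Ltbp4 had its lowest mean in Postn-traced cells, where Ltbp2 and Ltbp3 had their highest, and was the gene of this family found in most cells, 162 (87.6%, 81.9 to 92). In resident Tcf21-traced cells it ran from 6.47 to 9.96 with a median of 9.03 and was detected in 17 of 17 (80.5 to 100). In Postn-traced cells it ran from 0 to 8.32 with a median of 6.06 and was detected in 20 of 27 (74.1%, 53.7 to 88.9). Most resident Tcf21-traced cells were above the highest Postn-traced cell, and the lower part of the resident range overlapped the traced one. The means of 5.14 and 8.81 differed by -3.67, past the pooled SD of 2.28, and 99.5% of the 2474 genes detected in at least 50% of the cells of either class had a larger, that is less negative, difference. This Ltbp4 difference was -2.40 when the class value was log2 of the mean TPM.

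In activated Tcf21-traced cells Ltbp4 ran from 0 to 10.07 with a median of 6.91, and the mean of 6.36 was lower than that of resident Tcf21-traced cells by a difference of -2.44 (pooled SD 2.05), or -1.57 from log2 of the mean TPM. In activated Postn-negative cells it ran from 0 to 9.03 with a median of 7.42, and the difference of Postn-traced from these cells was -1.62, within the pooled SD of 2.58. In resident Postn-negative cells, which ran from 0 to 9.90 with a median of 8.0, the mean was 7.54, and the resident Tcf21-traced mean was higher by 1.27 (pooled SD 1.76). That last difference was 0.35 in the shared range of detected genes and 0.73 with the Postn-positive resident cells added. Ltbp4 was the highest of the 10 means in every larger class other than Postn-traced, where the order was Tgfb3, Ltbp2 and Ltbp4.

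**Figure D2:**
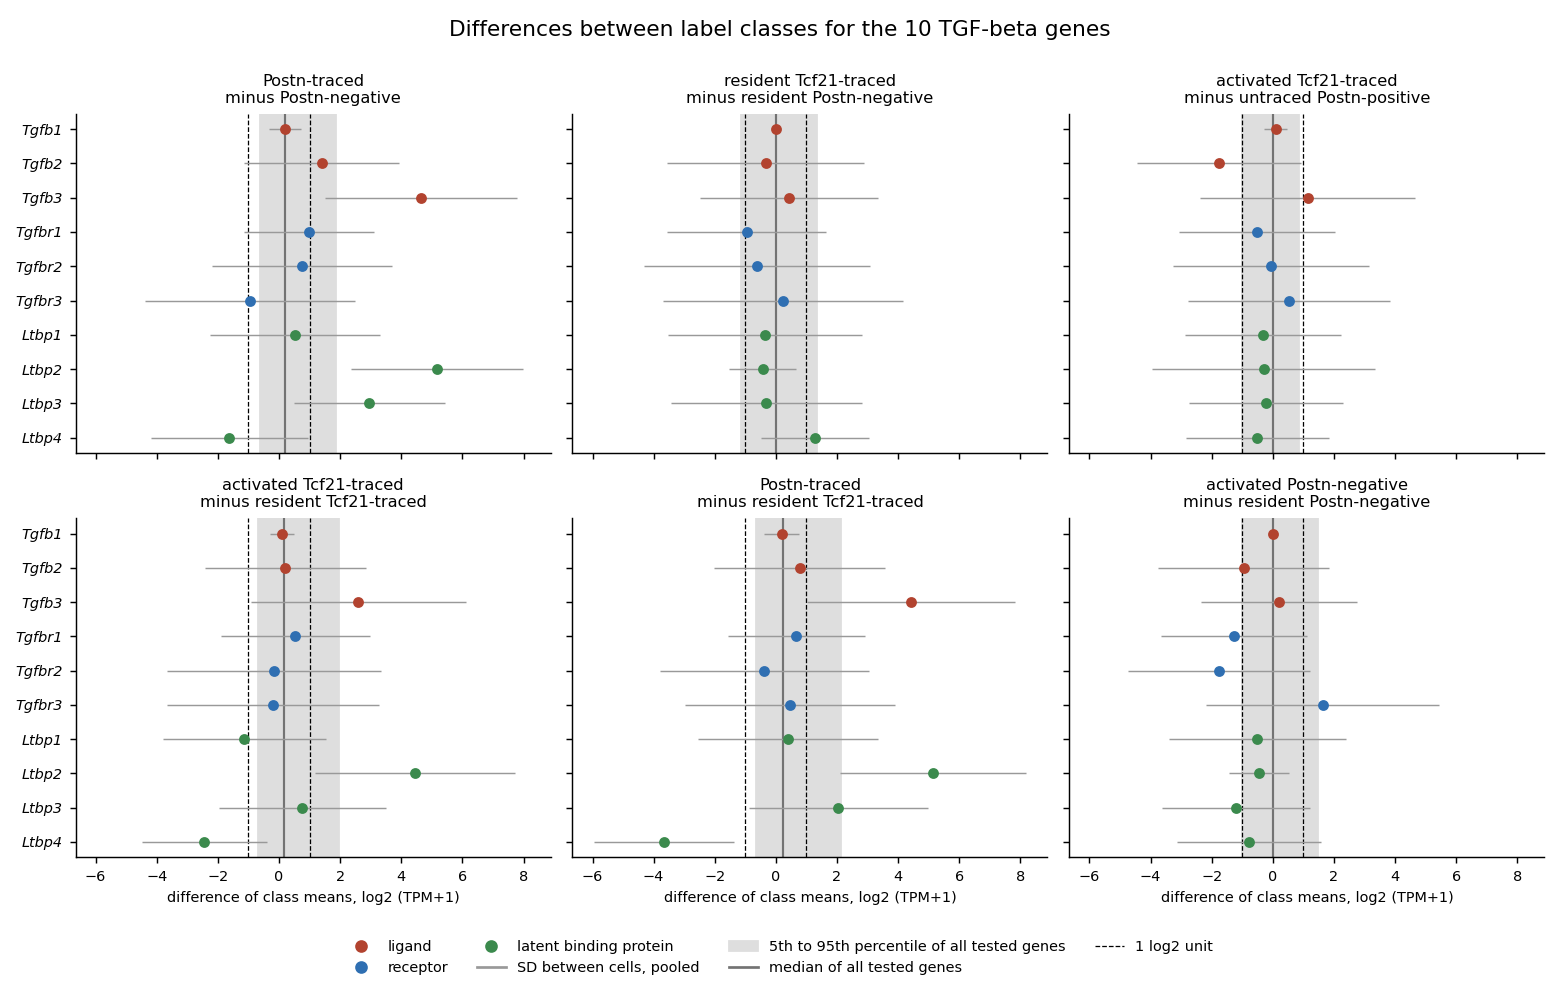
Difference of class means in log2 units for each gene in the 6 comparisons, with bars of 1 pooled SD between cells, the 5th to 95th percentile of all 15733 tested genes in grey and dashed lines at 1 log2 unit either way. Ltbp2 differs by 5.16, 4.46 and 5.14 and Ltbp4 by -1.62, -2.44 and -3.67 in the comparisons of Postn-traced with activated Postn-negative, activated Tcf21-traced with resident Tcf21-traced and Postn-traced with resident Tcf21-traced cells.

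The promoter windows of Ltbp2, Ltbp3 and Ltbp4 are shown because Ltbp2 and Ltbp3 were higher and Ltbp4 lower in Postn-traced cells. The windows are from RefSeq on GRCm38.p6 and span 250 bases before to 50 bases after an annotated start, 300 bases in all, written 5' to 3' on the strand of the gene. Ltbp2 lies at chr12:84876442-84876741 on the minus strand, Ltbp3 at chr19:5740650-5740949 on the plus strand and Ltbp4, of whose 3 windows the most upstream is given, at chr7:27337563-27337862 on the minus strand. Capitals mark the SMAD-binding box CAGAC or its reverse complement GTCTG.
Ltbp2: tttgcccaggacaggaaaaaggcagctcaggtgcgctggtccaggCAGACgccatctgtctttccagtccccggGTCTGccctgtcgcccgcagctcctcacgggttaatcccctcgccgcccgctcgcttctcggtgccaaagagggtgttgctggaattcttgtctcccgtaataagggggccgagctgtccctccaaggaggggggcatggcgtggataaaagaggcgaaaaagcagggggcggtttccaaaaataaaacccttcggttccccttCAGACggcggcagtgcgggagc
Ltbp3: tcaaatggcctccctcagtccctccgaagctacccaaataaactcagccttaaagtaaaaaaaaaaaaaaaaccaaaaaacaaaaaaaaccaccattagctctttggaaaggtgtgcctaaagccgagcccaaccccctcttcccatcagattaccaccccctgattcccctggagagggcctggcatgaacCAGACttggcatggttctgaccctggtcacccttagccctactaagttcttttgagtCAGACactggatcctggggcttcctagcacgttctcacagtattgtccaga
Ltbp4: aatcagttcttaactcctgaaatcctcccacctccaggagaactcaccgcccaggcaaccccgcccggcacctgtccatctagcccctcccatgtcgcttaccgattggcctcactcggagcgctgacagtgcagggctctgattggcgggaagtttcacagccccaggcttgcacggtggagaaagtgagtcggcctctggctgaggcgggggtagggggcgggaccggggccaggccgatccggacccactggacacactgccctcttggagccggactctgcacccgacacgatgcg
The Ltbp2 window held 3 matches, the Ltbp3 window 2 and the 3 Ltbp4 windows 0. A box was present in 49.6% of 32851 mouse promoter windows of this length, so a match is common and is given as a description. Windows were found for 8 of the 10 genes: Tgfb2 had 2 matches, Tgfbr2 had 1, the windows of Tgfbr1 had 0 and 1, those of Ltbp1 had 1 and 2, and Tgfb1 had 0; Tgfb3 and Tgfbr3 had no entry. The TEAD site GGAATG, searched with its reverse complement CATTCC, was in 14.7% of all windows and in 0 of those of the 8 genes.

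In the annotation of GRCm38 the 10 genes lay on 8 chromosomes. Tgfb3 (chr12:86056745-86079041, minus strand) and Ltbp2 (chr12:84783212-84876532, minus strand) were 1.18 Mb apart, and Tgfb1 (chr7:25687002-25705077, plus strand) and Ltbp4 (chr7:27305136-27337692, minus strand) were 1.6 Mb apart. Tgfb2 lay at chr1:186622792-186705989, Tgfbr1 at chr4:47353222-47414931, Tgfbr2 at chr9:116084293-116175360, Tgfbr3 at chr5:107106570-107289629, Ltbp1 at chr17:75005568-75392512 and Ltbp3 at chr19:5740904-5758532.

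Ordering the 8 combinations of class and capture with at least 6 cells by mean placed Postn-traced cells highest for Tgfb3, Ltbp1, Ltbp2 and Ltbp3 and lowest for Ltbp4. Activated Postn-negative cells were lowest for Tgfb2, Tgfbr1, Ltbp2 and Ltbp3, and highest for Tgfbr3. For Ltbp4 the order ran from resident Tcf21-traced and resident Postn-negative cells through untraced Postn-positive, activated Postn-negative and activated Tcf21-traced cells to untraced scar and Postn-traced cells. For each of the 10 genes, 0 of the 7 gaps between neighbours in this order exceeded the pooled SD between cells. Only classes some steps apart were separated by more than the spread, as in the range of means of 5.16 for Ltbp2, 4.85 for Tgfb3 and 3.67 for Ltbp4, against 2.57 for Tgfb2.

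Counted over the family, 20 of the 60 differences, 10 genes in 6 comparisons, passed 1 log2 unit, and 8 also passed the pooled SD. Of Postn-traced against activated Postn-negative cells, 4 genes were higher, where 16.7% of the 15733 tested genes were, and 1 was lower, where 2.35% were. Of Postn-traced against resident Tcf21-traced cells, 3 were higher (background 20%) and 1 lower (background 2.51%). Of activated against resident Tcf21-traced cells, 2 were higher (background 16.9%) and 2 lower (background 2.65%). Activated against resident Postn-negative cells gave 1 higher (background 10.3%) and 3 lower (background 5.20%). Resident Tcf21-traced against resident Postn-negative cells gave 1 higher (background 8.65%) and 0 lower (background 6.55%), and activated Tcf21-traced against untraced Postn-positive cells of Nov4 gave 1 higher (background 3.34%) and 1 lower (background 5.05%).

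These backgrounds include many genes seen in few cells, which can hardly differ. Among genes detected in at least 50% of the cells of either class, 51.2% were higher and 7.13% lower in Postn-traced than in activated Postn-negative cells, and of the 7 genes of the family in that group 3 were higher and 1 lower. With so few genes, the counts were near this background and are not a result about the family, in this comparison as in the others. The median difference of the 10 genes in that comparison was 0.87, against 0.19 over all tested genes. It was -0.32 and 0 for the resident classes, -0.27 and 0 within Nov4, and 0.15 and 0.16 between the Tcf21-traced classes. For Postn-traced against resident Tcf21-traced cells it was 0.57 and 0.22, and for the Postn-negative classes -0.64 and 0. Among well-detected genes, the median of the family's genes was below that of all such genes in each comparison. It was 0.75 against 1.04 for Postn-traced against activated Postn-negative cells. In the same order, the other values were -0.06 and 0.11, -0.23 and -0.11, -0.16 and 1.18, 0.46 and 1.25, and -0.64 and 0.40. The largest single differences, picked out of 60 after the values were seen, were those of Ltbp2, Tgfb3 and Ltbp4. In the comparisons with Postn-traced cells, Tgfb3 and Ltbp2 were well detected only through that class, where they were high. Their ranks among well-detected genes are therefore a description. Tgfb3 passed 87.2% of such genes between the Tcf21-traced classes and 45% between the Postn-negative classes. The comparisons share classes, so their values stand side by side and were not counted as repeats.

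Depth and muscle markers moved with the main contrast. Postn-traced cells had more detected genes than activated Postn-negative cells, and the range that both share did not match them, since it held all 27 Postn-traced cells and 18 negative cells with medians of 3643 and 2397 detected genes. The part of detected genes in these differences was not tested. Within Postn-traced cells the Spearman correlation with the number of detected genes was 0.10 for Tgfb3 and 0.12 for Ltbp2, against 0.42 for both in activated Tcf21-traced cells. The summed mean of the 6 smooth muscle markers was 11.02 in Postn-traced, 12.31 in untraced Postn-positive and 10.43 in activated Tcf21-traced cells, with Tagln highest in each. It was 6.33 in untraced scar, 3.75 in activated Postn-negative, 3.39 in resident Tcf21-traced and 1.6 in resident Postn-negative cells, and in those last 3 classes Myh11, Cnn1 and Lmod1 were at 0 in every cell. Myh11 and Cnn1 were also at 0 in every untraced Postn-positive cell, so they do not set those classes apart. The summed mean of the pericyte list was 4.69 in Postn-traced and 2.41 in activated Postn-negative cells, with Pdgfrb highest and Rgs5 and Kcnj8 at 0 in every cell of both. The part of these markers in the differences was not tested.

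Because ligand, receptor and binding protein act together, their detection was also counted cell by cell. At least 1 ligand was detected in 116 cells (62.7%, 55.3 to 69.7): in 22 of 27 Postn-traced cells (81.5%, 61.9 to 93.7), 32 of 44 activated Tcf21-traced cells (72.7%, 57.2 to 85), 21 of 28 untraced Postn-positive cells, 21 of 29 untraced scar cells, and 6 of 24 activated Postn-negative cells (25%, 9.77 to 46.7). In uninjured hearts it was 6 of 17 resident Tcf21-traced and 5 of 12 resident Postn-negative cells. Ligand-positive cells were thus the majority above 5 TPM in the activated classes other than the Postn-negative one. That class reached 50% at 1 TPM and 54.2% at any value over 0, where it was a majority too. All 116 had Tgfb2 or Tgfb3, so the values of Tgfb1 added none. Tgfb2 and Tgfb3 were found together in 39 cells, of which 10 were Postn-traced and 1 was activated Postn-negative.

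Both receptor kinases were detected in 43 cells (23.2%, 17.4 to 30), and in 36.8% at 1 TPM. By class this was 5 of 27 Postn-traced, 5 of 24 activated Postn-negative, 7 of 28 untraced Postn-positive, 10 of 44 activated Tcf21-traced, 8 of 29 untraced scar, 2 of 17 resident Tcf21-traced and 3 of 12 resident Postn-negative cells. These shares lay between 11.8% and 27.6%, and 4 of them moved with the threshold. At 1 TPM the Postn-traced share was 48.1%, and at any value over 0 it was 57.1% in untraced Postn-positive, 51.7% in untraced scar and 43.2% in activated Tcf21-traced cells. Cells with both kinases had a median of 3299 detected genes and the others 2630.5, and 71 cells had Tgfbr2 without Tgfbr1 whereas 14 had the reverse. A ligand together with both kinases was found in 29 cells (15.7%).

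**Figure D3:**
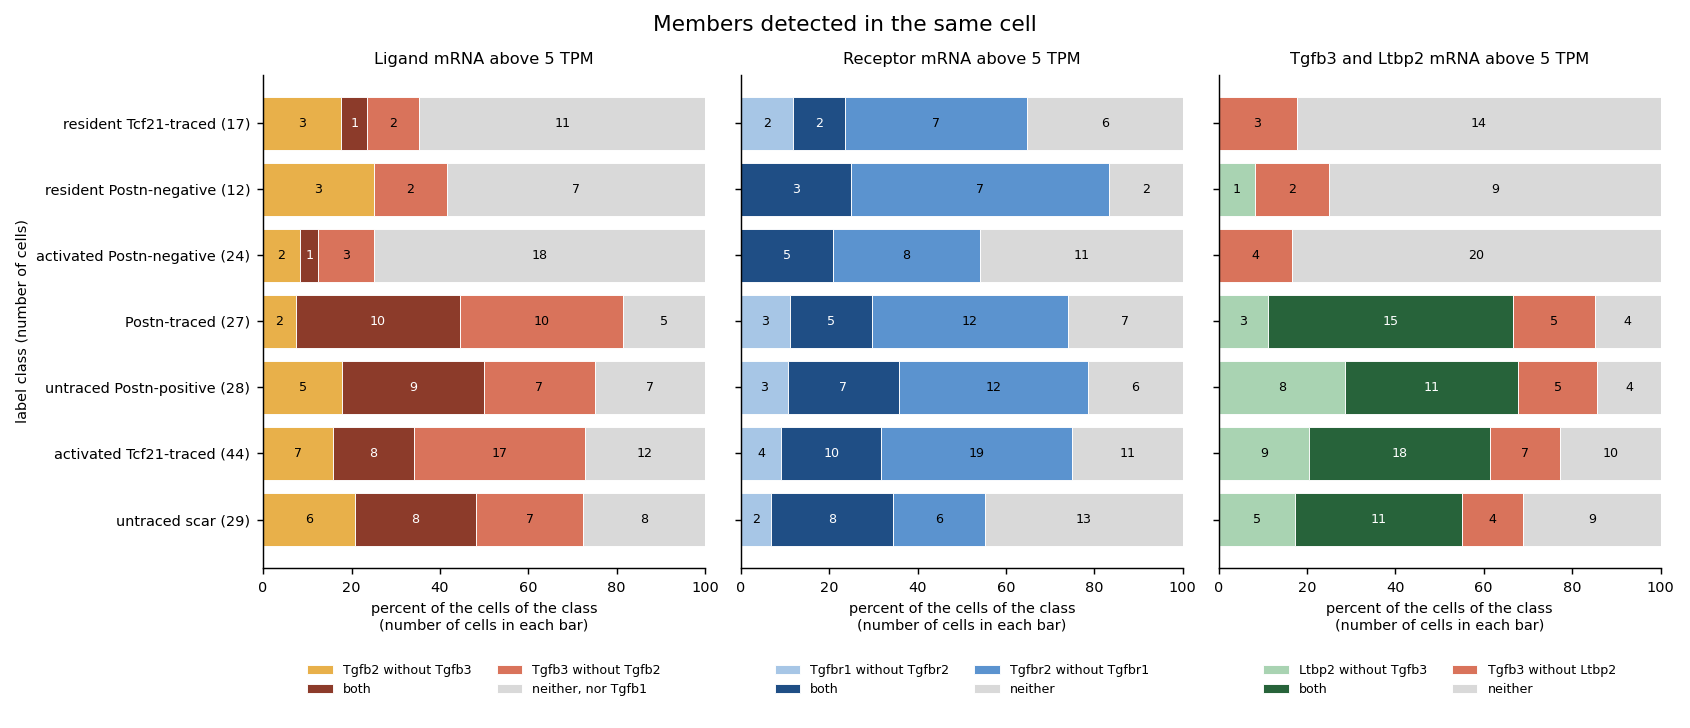
Percent of cells of each of the 7 larger classes by which ligands, which receptor kinases, and which of Tgfb3 and Ltbp2 were detected above 5 TPM in the same cell. Both Tgfb3 and Ltbp2 were detected in 15 of 27 Postn-traced cells and in 0 of 24 activated Postn-negative cells.

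Tgfb3 and Ltbp2 were detected together in 56 cells (30.3%), and this pair was also singled out after the values were seen. The pair was present in 15 of 27 Postn-traced, 11 of 28 untraced Postn-positive, 18 of 44 activated Tcf21-traced and 11 of 29 untraced scar cells, and in 0 activated Postn-negative, resident Tcf21-traced or resident Postn-negative cells. Cells of 1 class and capture vary in detected genes, and no label gives their batch of library preparation. Across such cells the Pearson correlation of Tgfb3 with Ltbp2 was 0.55 over 27 Postn-traced and 0.46 over 19 untraced Postn-positive cells of Nov4. It was 0.40 over 44 activated Tcf21-traced cells and 0.29 over 29 untraced scar cells. It was -0.26 over the 6 untraced Postn-positive cells of Jul29. Cells with both also had more detected genes, with a median of 3493.5 against 2548 in the others and 3708.5 against 2889.5 among activated Tcf21-traced cells, and the part of this in the pairing was not tested. Of the Postn-traced cells, 5 had Tgfb3 without Ltbp2 and 3 had Ltbp2 without Tgfb3.

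**Figure D4:**
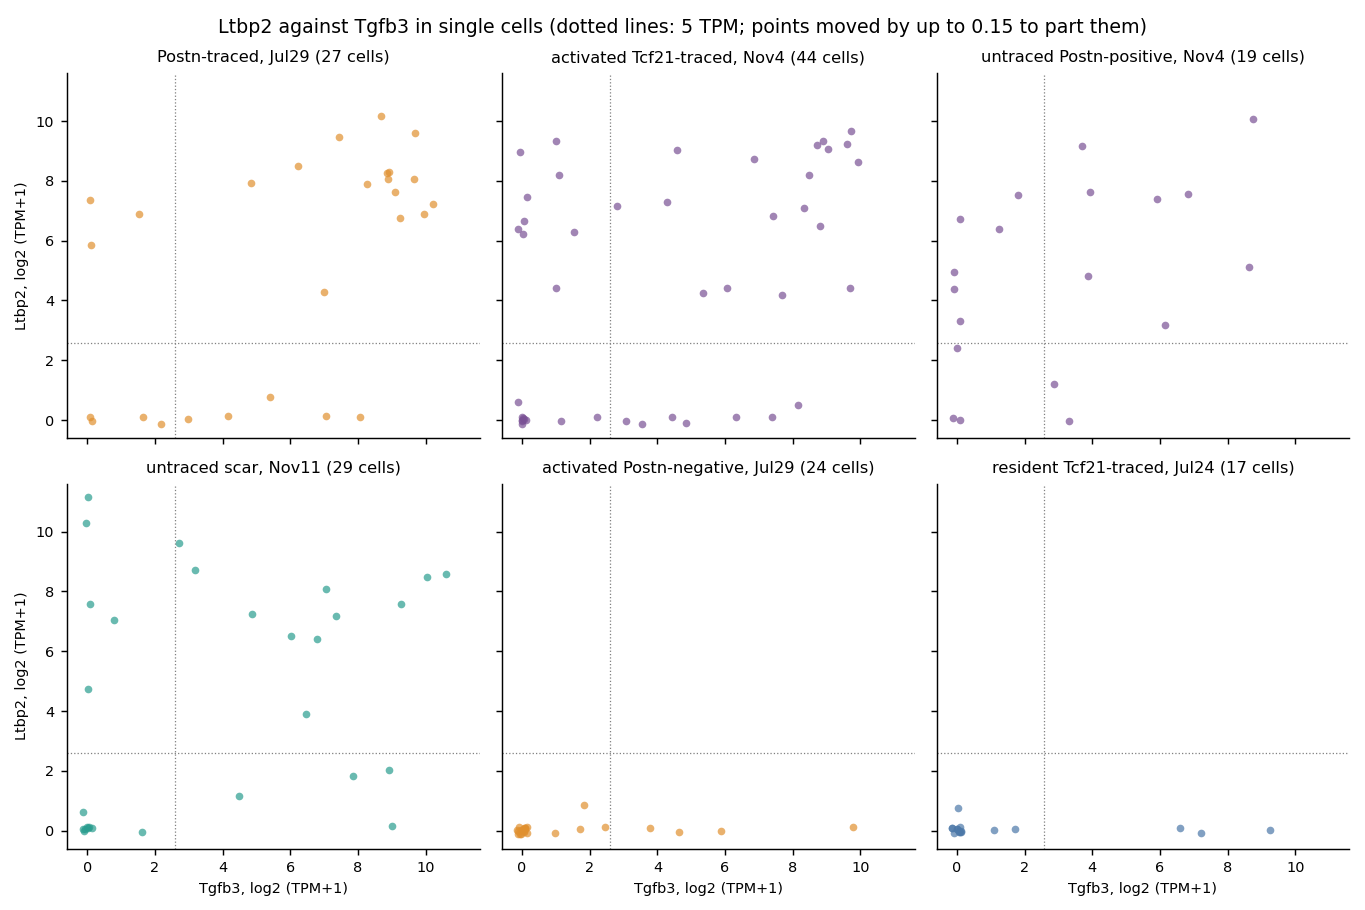
Ltbp2 against Tgfb3, both as log2 (TPM+1), in single cells of 6 combinations of class and capture, with points at the same place moved apart by at most 0.15. The Pearson correlation is 0.55 in Postn-traced cells, and activated Postn-negative cells lie along the bottom with a highest Ltbp2 of 0.79.

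Other genes of the pathway were followed as 6 lists, in which Acta2 and Tagln are also smooth muscle markers and Col1a1, Col3a1 and Dcn also fibroblast markers. The lists were chosen with earlier results of these data known, so their shares beside the backgrounds are descriptions. In Postn-traced against activated Postn-negative cells, 14 of 20 target genes were higher and 1 lower (median difference 2.41, against 0.19 over all tested genes), where 16.7% of all tested and 51.2% of well-detected genes were higher. They were led by Postn at 10.37, which defined the classes, Cthrc1 at 9.18 and the collagen-crosslinking enzyme Lox at 6.41, with the metalloproteinase inhibitor Timp3 lower at -2.78. Of the genes of latency and activation, 9 of 15 were higher and 0 lower (median 1.11), a share near that of well-detected genes, led by fibronectin Fn1 at 5.98, the membrane protease Mmp14 at 3.44 and the integrin subunit Itgb5 at 1.52. Among inhibitors, 6 of 15 were higher (median 0.53), led by the SMAD corepressor Tgif1 at 3.14, the inhibitory Smad7 at 2.76 and Pmepa1, which sequesters SMADs, at 2.08. Other ligands gave 1 of 10 higher and 2 lower (median -0.27), and the 1 higher gene, Bmp1 at 3.12, encodes a procollagen protease and not a ligand. Other receptors gave 2 of 7 higher (median 0.63), with the BMP receptor Bmpr1a at 2.20, and SMADs gave 2 of 6 (median 0.36), with the common Smad4 at 1.35.

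The activated Tcf21-traced and Postn-traced classes were each compared with resident Tcf21-traced cells, which they share. In activated Tcf21-traced cells 15 of 20 targets were higher and 3 lower (median 1.97). Of all tested genes 16.9% were higher and 2.65% lower there, and of well-detected genes 55.5% and 8.30%. In Postn-traced cells 13 targets were higher and 3 lower (median 3.11), against 20% and 2.51% of all tested genes and 57.7% and 6.95% of well-detected genes. Among them Timp1 was higher by 7.41 and 7.79, and Timp3 lower at -1.14 and -3.71. Of the 15 latency and activation genes 8 were higher in each (medians 1.5 and 1.05), with Fn1 at 4.57 and 7.00 and Mmp14 at 4.68 and 3.77. Of the 15 inhibitors 8 and 5 were higher (medians 1.04 and 0.69) and 1 was lower in each, the proteoglycan Dcn, which binds TGF-beta, at -1.15 and -1.02. Of these lists, that of latency and activation and that of inhibitors held no larger share of higher genes than well-detected genes did. Other receptors gave 3 of 7 higher in each, with Bmpr2 at 1.31 and 1.84, SMADs gave 1 of 6 in each, and other ligands gave 2 of 10 higher and 1 lower, and 1 higher and 0 lower, with Bmp1 at 1.93 and 3.0.

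The remaining comparisons moved fewer of these genes. Within Nov4, activated Tcf21-traced cells had 2 of 20 targets higher and 10 lower than untraced Postn-positive cells (median -1.02, against 0 over all tested genes). There 3.34% of all tested genes were higher and 5.05% lower (10.4% and 15.5% of well-detected genes). The untraced class is labelled by its Postn, which is itself on the target list. Postn was detected in 39 of 44 activated Tcf21-traced cells, so the target count is not independent of the labels. Among the targets were tenascin Tnc at -2.23, Tagln at -2.12 and Timp1 at -1.95, and Id3, a BMP-responsive gene, at 2.05. Of the 15 latency and activation genes in this comparison 2 were higher and 3 lower, near the shares of well-detected genes, with Mmp14 at 1.79 and the activator Thbs1 at -1.89. Inhibitors gave 1 each way with the corepressor Ski at 1.41, and other ligands, receptors and SMADs gave 0 higher and 1 lower each, with Acvrl1 at -1.11. Between resident classes the counts higher and lower were 3 and 1 for targets, 1 and 0 for latency and activation genes, 2 and 2 for inhibitors, 0 and 1 for ligands, 1 and 1 for receptors and 1 and 0 for SMADs, with fibrillin Fbn1 at 2.29, where 8.65% of all tested genes were higher and 6.55% lower (27.1% and 20.5% of well-detected genes). Between activated and resident Postn-negative cells they were 3 and 2, 3 and 1, 2 and 2, 2 and 1, 2 and 1, and 1 and 1 in the same order, with Fbn1 at 2.44 and the matrix gene Ctgf at 2.42, where 10.3% of all tested genes were higher and 5.20% lower (34% and 15.8% of well-detected genes).

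**Figure D5:**
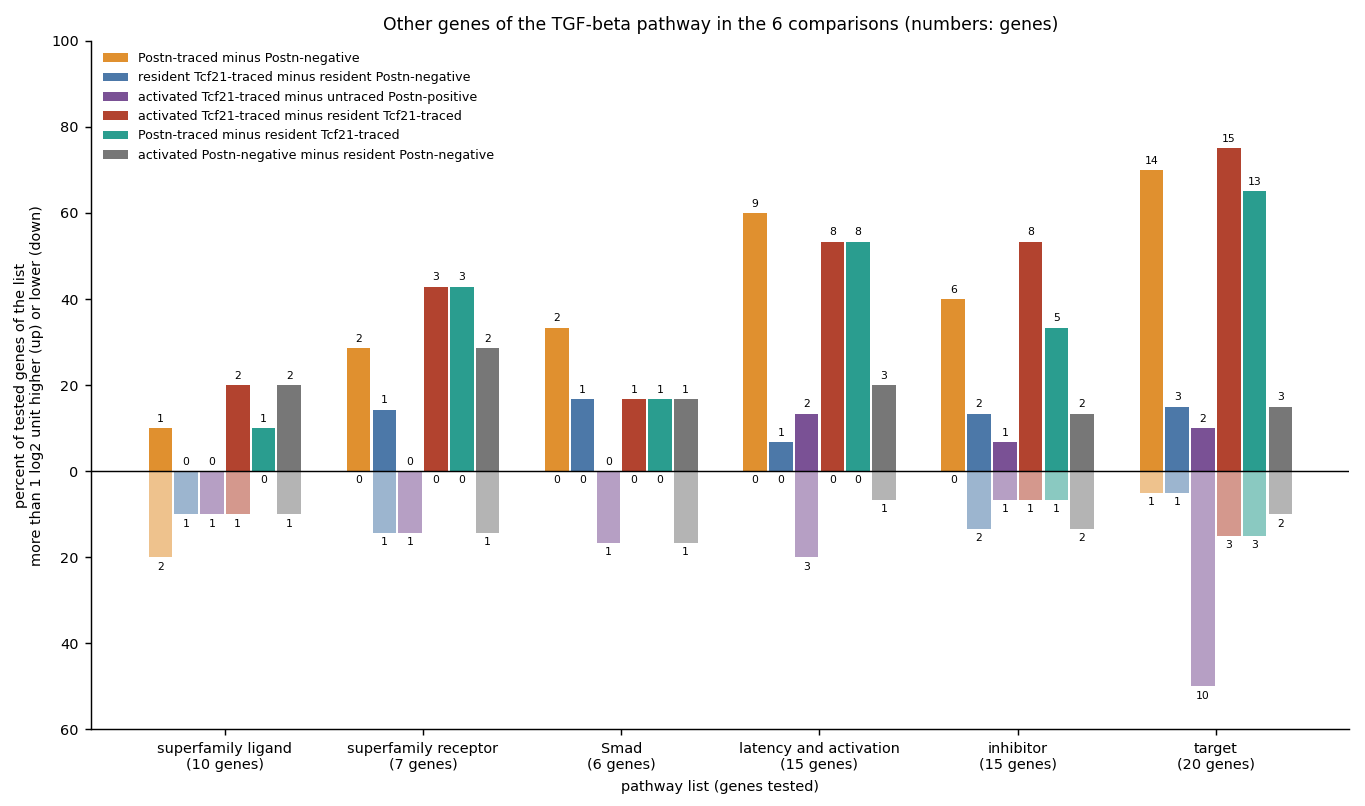
Percent of the tested genes of each of 6 pathway lists that were higher or lower by more than 1 log2 unit in each of the 6 comparisons, with the number of genes on each bar. Of 20 targets, 14 are higher in Postn-traced than in activated Postn-negative cells, and 10 are lower in activated Tcf21-traced than in untraced Postn-positive cells. Postn is on the target list and also helped to define classes in both comparisons.

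The genes whose means over the 8 combinations of class and capture were most like each gene other than Tgfb1 were sought by Pearson correlation among well-detected genes, 3414 of them, or 3415 for Tgfbr1. Ltbp2 was most like C1qtnf6, Lox and Phldb2 (each 0.97), Ltbp3 like Fam32a (0.97), Ctsk (0.96) and Dkk3 (0.95), and Tgfb3 like Dusp11 (0.96), Kdm2a (0.95) and 1810030O07Rik (0.95). Ltbp4 was most like H3f3b (0.93), Tmem181b-ps (0.87) and Smoc2 (0.85). By Spearman correlation none of these was among the 3 genes most like Ltbp2, Ltbp3 or Ltbp4, which were Col3a1, Dennd4a and Ammecr1 for Ltbp2, Postn, Ammecr1 and Enpp1 for Ltbp3, and Unc13d, Ncoa1 and Ptma for Ltbp4. Tgfb2 was most like Ddx52 (0.95), Tgfbr1 like Tob2 (0.98), Tgfbr2 like Gng11 (0.95), Tgfbr3 like Igfbp6 (0.94) and Ltbp1 like Txnip (0.95). Within the family the highest correlations over these 8 points were 0.85 for Tgfb3 with Ltbp3 and 0.84 for Tgfb2 with Tgfbr1, and Ltbp2 with Ltbp4 gave -0.77. Mean Lox, for example, was 7.57 in Postn-traced, 6.54 in activated Tcf21-traced and 1.16 in activated Postn-negative cells, and mean Smoc2 was 4.08, 6.84 and 7.74 there and 10.30 in resident Tcf21-traced cells. These are descriptions over 8 points that share captures and differ in detected genes.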

How the data were processed

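The deposited table holds log2 (TPM+1) values that the authors made from single-end 100-base reads of C1 libraries, 1 per cell. The submitters' processing notes name Bowtie 1.0.0, eXpress 1.5.1 and mm10. TPM converted back summed to between 999257 and 1000000 per cell, so they hold no read depth. The study states only an average depth over cells, and detected genes stand in for that of each cell. Classes follow the cell classification label and captures the cell name. A difference is a difference of class means, read against the pooled SD between cells and called past 1 log2 unit, over the 15733 genes above 5 TPM in at least 1 cell. No test was run because each class is 1 sample.

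Named genes are all members; up to 3 per pathway list and direction with the largest difference past 1 log2 unit, above 5 TPM in at least 50% of the higher class; and the 3 genes most like each member other than Tgfb1. The members and lists were chosen with earlier results of these data known. The 7 marker lists had 6 genes each. Alternatives were class medians, log2 of the mean TPM, pseudocounts of 0.1 and 5, centring each cell, detection at 1 TPM or any value over 0, leaving out 7 low-gene cells, adding Postn-positive cells to the negative or resident classes, well-detected genes as background, Spearman correlation and, chosen after seeing the data, only cells in the shared range of detected genes. Gene positions are from GENCODE on GRCm38. Statistics used SciPy 1.17.1 and pandas 2.3.3 with NumPy 2.4.6, figures Matplotlib 3.10.9, all under Python 3.11.15, and the code was tested on simulated data.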

Additional observations from a re-analysis of the deposited data

How the results depend on the processing

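Of the 20 differences past 1 log2 unit, all 20 stayed past it in the same direction with a pseudocount of 0.1, 19 with each cell centred, 18 with class medians, 16 with log2 of the mean TPM, 16 in the shared range of detected genes and 14 with a pseudocount of 5. A pseudocount of 0.1 widened differences in general and is a weak check. With it, 28.8% of all tested genes were higher in Postn-traced than in activated Postn-negative cells, against 16.7% as reported. The shared range was chosen after seeing the data. One reversed: Tgfbr3 between the Postn-negative classes was -0.16 with log2 of the mean TPM. Of 440 alternative differences, 3 others moved by more than the spread between cells. Between resident classes Tgfbr3 went from 0.24 to 4.32 with medians, and Ltbp2 from -0.44 to -2.46 with log2 of the mean TPM. Between the Postn-negative classes Ltbp2 went from -0.46 to -2.48 with log2 of the mean TPM. The 60 made without low-gene cells could not move, since no compared class held such a cell. The causes were not tested except where fewer genes or cells entered by construction.

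Some of the member counts that moved are given by setting, and the list is not complete. The share of all tested genes in the same setting and direction follows in brackets. These shares moved with the setting as well, so the counts are not a result about the family. In Postn-traced against activated Postn-negative cells, for example, Tgfb2 fell to 0.81 with a pseudocount of 5 and no longer counted as higher. There the median difference of the family was 1.54 with medians, 1.33 with a pseudocount of 0.1 and 1.09 with each cell centred. More genes were thus higher in those settings than reported. Of all tested genes, 12.9%, 28.8% and 20.4% were higher there, against 16.7% as reported. With log2 of the mean TPM, resident Tcf21-traced against resident Postn-negative cells gave 0 higher (26.2%) and 5 lower (19.8%). Postn-traced against resident Tcf21-traced cells gave 2 lower (17.8%), and the Postn-negative classes 0 higher (30.1%) and 5 lower (18.2%). With medians the counts were 2 higher (4.80%) and 1 lower (3.62%) between resident classes and 3 lower (7.01%) within Nov4. They were 7 higher (13.8%) in Postn-traced against resident Tcf21-traced cells and 1 lower (3.06%) between Postn-negative classes. With a pseudocount of 0.1, Postn-traced against activated Postn-negative cells gave 2 lower, the resident classes 2 higher and 2 lower, Nov4 2 lower and Postn-traced against resident Tcf21-traced cells 5 higher. With a pseudocount of 5, Nov4 gave 0 higher, the Tcf21-traced classes 1 lower, and the Postn-negative classes 0 higher and 1 lower. Centring gave 1 lower (1.78%) between the Tcf21-traced classes. In the shared range, Postn-traced against activated Postn-negative cells gave 2 lower (3.17%) and the resident classes 0 higher (8.08%) and 2 lower (9.57%). The Tcf21-traced classes gave 1 higher (9.11%), Postn-traced against resident Tcf21-traced cells 2 lower (14.8%) and the Postn-negative classes 0 higher (8.63%). Adding Postn-positive resident cells gave 0 higher (7.77%) between resident classes.

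With well-detected genes as background, the shares higher and lower were 51.2% and 7.13% for Postn-traced against activated Postn-negative cells, 27.1% and 20.5% between resident classes, 10.4% and 15.5% within Nov4, 55.5% and 8.30% between Tcf21-traced classes, 57.7% and 6.95% for Postn-traced against resident Tcf21-traced cells, and 34% and 15.8% between Postn-negative classes.

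Shares of all cells at 1 TPM and at any value over 0 were 36.8% and 44.3% for both receptor kinases, 71.4% and 73% for at least 1 ligand, 44.3% and 45.4% for Tgfb2, 55.1% and 57.8% for Tgfb3, 44.3% and 50.3% for Tgfbr1, 71.4% and 81.1% for Tgfbr2, 67% and 73.5% for Tgfbr3, 58.9% and 61.6% for Ltbp1, 53% and 56.8% for Ltbp3, and 92.4% for Ltbp4 over 0. The mouse of each cell is not given in the sources used here, so animals and cells cannot be told apart, and TPM keeps no depth, so a value listed at 0 does not show absence of the RNA.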
